A study of Homo sapiens with 2 samples.

Results

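The E2F and retinoblastoma family was followed in RKO, an established line of human colon carcinoma cells, collected 48 h after they received an siRNA against SRSF1, which encodes a regulator of pre-mRNA splicing, or a control siRNA. Each group consisted of 1 RNA sequencing library, and the differences below therefore have no replicate check and no p-value. The genes were chosen by name, as the rows E2F1, E2F2, E2F3, E2F4, E2F5, E2F7, E2F8, RB1, RBL1 and RBL2 of the deposited gene table. All 10 were found among its 40205 rows, and all 10 were among the 11274 genes with an average of 1 FPKM or more over both libraries (called expressed genes below). FPKM counts the fragments of a gene, divided by the length of its model and by the library total. The labels name no second siRNA against SRSF1 and no rescue, so effects of SRSF1 loss and of siRNA action on other transcripts cannot be told apart. The siRNA sequences are not given in the labels either.

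E2F proteins are transcription factors that bind DNA as dimers with a DP protein and control genes of S phase entry. The pocket proteins RB1, RBL1 (p107) and RBL2 (p130) bind E2F proteins and keep them from activating genes until cyclin-dependent kinases phosphorylate the pocket protein. E2F1, E2F2 and E2F3 are the activators and associate mainly with RB1, E2F4 and E2F5 act mainly as repressors with RBL1 and RBL2, and the atypical members E2F7 and E2F8 repress without a DP partner or a pocket protein.

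Several of these genes carry E2F binding words in their own promoters, and 4 are printed here because they include transcripts that lay on opposite sides of the comparison. The words searched were TTTCCCGC, TTTGGCGC, TTTCGCGC and TTTGCCGC on both strands, in RefSeq windows of 300 bases (250 before and 50 after the start of a transcript, GRCh38.p14). Windows were found for 8 of the 10 genes. Of all 35116 windows, 3.31% held such a word. Counted by gene, 573 expressed genes with a window held a word and 7354 did not. Of the 8 family genes with a window, 4 held one. The 60 bases before the transcript start are shown 5′ to 3′ on the gene's strand, with the words in capitals:
E2F1 (minus strand, chr20:33686386-33686445): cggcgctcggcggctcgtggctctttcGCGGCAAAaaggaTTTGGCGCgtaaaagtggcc
E2F2 (minus strand, chr1:23531234-23531293): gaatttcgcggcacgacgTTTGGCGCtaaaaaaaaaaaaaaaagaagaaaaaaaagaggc
E2F3 (plus strand, chr6:20401819-20401878): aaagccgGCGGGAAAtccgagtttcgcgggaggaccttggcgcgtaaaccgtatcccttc
RBL1 (minus strand, chr20:37095998-37096057): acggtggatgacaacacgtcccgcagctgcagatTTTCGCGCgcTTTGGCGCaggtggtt
E2F1 and RBL1 each held 2 words within the last 33 bases before the start, whereas E2F2 held 1 word at 42 bases and E2F3 held 1 at 53 bases before it. The windows of E2F4, E2F7 and RBL2 held none. Those listed for RBL2 are for transcript starts 494 and 1642 bases from its gene start in GENCODE 29, against 14 bases for E2F4 and 11 for E2F7. The transcript start of the window listed for RB1 lies 172724 bases into the gene as annotated in GENCODE 29. This window held no word and was not read as its main promoter, but RB1 is counted among the 8 genes with a window. A word is a match of letters and says nothing of whether a factor was bound.

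Before the family, the state of the libraries is given in brief. SRSF1 itself was at 32.7 FPKM in SRSF1 siRNA cells, against 103 FPKM in control siRNA cells. The SRSF1 siRNA library held 23852089 counted fragments and the control siRNA library 23138519. Of 61879680 reads of the SRSF1 siRNA library 75.9% were mapped, and of 64651910 reads of the control siRNA library 70.4%. The part of this difference in the results below was not tested. Of 6 colon epithelium markers, KRT8, KRT18, EPCAM and CDX2 were expressed, with KRT18 at 82.2 FPKM in SRSF1 siRNA cells and 88.4 FPKM in control siRNA cells, whereas KRT19 and CDH1 were listed at 0 in both libraries. The mesenchymal marker VIM was at 3.35 FPKM in SRSF1 siRNA cells and 4.95 FPKM in control siRNA cells. Markers of fibroblasts and endothelium and the leukocyte markers PTPRC and CD3E were between 0 and 0.0141 FPKM in both libraries, and LCP1, also expressed by leukocytes, was at 109 FPKM in SRSF1 siRNA cells and 74.3 FPKM in control siRNA cells. Of the cycling cell markers, MKI67 was at 152 FPKM in SRSF1 siRNA cells and 154 FPKM in control siRNA cells, PCNA was at 1.11 times and TOP2A at 0.913 times its control level. Mitochondrial reads made up 8.39% of mapped reads in the SRSF1 siRNA library and 6.60% in the control siRNA library, and their part in the results below was not tested.

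Across the family, 2 of the 10 transcripts were at least 1.5-fold lower in SRSF1 siRNA cells and 0 were at least 1.5-fold higher. These were E2F5 and RBL1. In such bulk RNA, fewer cells with a transcript and less of it per cell cannot be told apart. The limit was set on log2(FPKM + 1) in SRSF1 siRNA cells minus that in control siRNA cells, and among all 11274 genes 4.30% were past it on the lower side and 1.22% on the higher side. The median difference was -0.16 over the 10 genes and -0.06 over all 11274. Within the family 3 transcripts were above 0 and 7 below, where 4474 of all expressed genes were above 0 and 6800 below. Under quantile normalization or median centring, 4 members were above 0 and 6 below. Of all expressed genes, 138 were at least 1.5-fold higher and 485 lower as deposited, against 217 and 324 under quantile normalization and 197 and 355 with median centring. The 2-fold limit was reached by none of the 10, and by 0.284% of all genes on the higher and 0.435% on the lower side.

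**Figure D1:**
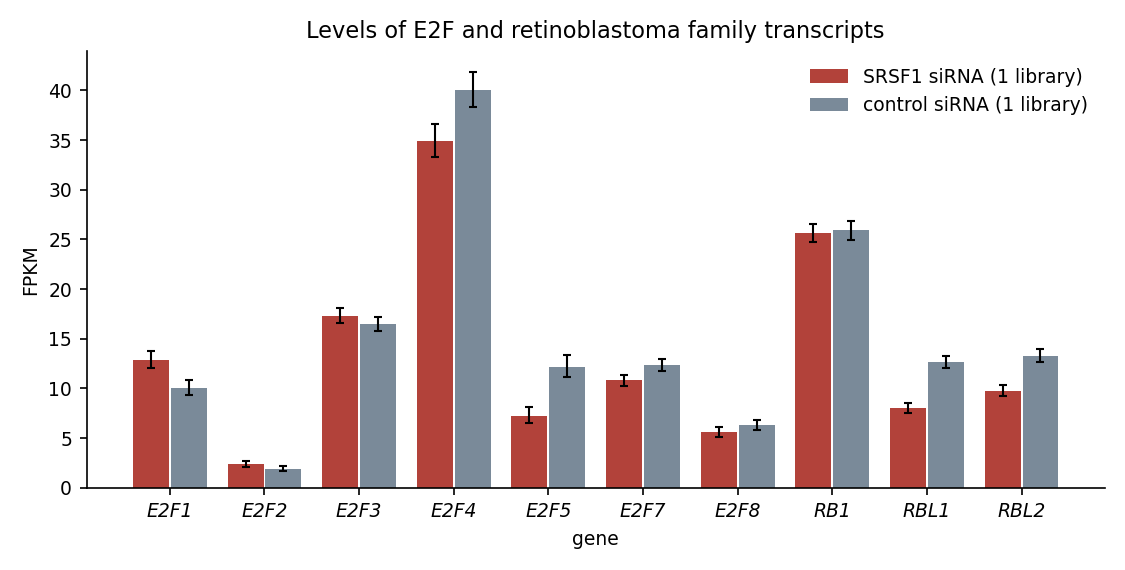
Level of each family transcript in FPKM (vertical axis, from 0) in the SRSF1 siRNA library (left bar of each pair) and the control siRNA library (right bar), 1 library each. Error bars are exact 95% Poisson intervals of the fragment count and cover counting error only. The bars of E2F4, E2F5, E2F7, RBL1 and RBL2 stand lower in the SRSF1 siRNA library, and that of E2F1 higher, each with intervals that do not overlap.

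Among the activators, E2F1, which drives S phase genes and can also drive apoptosis, had 12.9 FPKM in SRSF1 siRNA cells, against 10.1 FPKM in control siRNA cells. This was 1.28 times the control level (95% counting interval 1.15 to 1.42), the highest difference of the family at 0.33 on the log2(FPKM + 1) scale. E2F2, the least abundant member in both libraries, had 2.37 FPKM in SRSF1 siRNA cells, against 1.89 FPKM in control siRNA cells. This was 125% of the control level, with an interval of 105% to 149.6% that rests on 293 fragments in SRSF1 siRNA cells and 227 in control siRNA cells. E2F3, the most abundant activator, had 17.3 FPKM in SRSF1 siRNA cells and 16.5 FPKM in control siRNA cells, a ratio of 1.05 whose interval held 1 (0.986 to 1.12). All 3 ratios were above 1, and the interval of E2F3 overlapped that of E2F2 but not that of E2F1. Summed, the activators came to 32.5 FPKM in SRSF1 siRNA cells and 28.4 FPKM in control siRNA cells, a ratio of 1.14 (approximate 95% counting interval 1.09 to 1.21).

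E2F4 and E2F5 are close relatives that lack a cyclin A binding region and rely on pocket proteins to repress. E2F4 was the most abundant member of the family in both libraries, with 34.9 FPKM in SRSF1 siRNA cells, against 40.1 FPKM in control siRNA cells (ratio 0.871, interval 0.816 to 0.930). E2F5 had 7.28 FPKM in SRSF1 siRNA cells, against 12.2 FPKM in control siRNA cells, the lowest ratio of the family at 0.597 (0.516 to 0.691). The SRSF1 siRNA library held 301 fragments of E2F5 and the control siRNA library 489. E2F5 was further below its control level than E2F4, with intervals that did not overlap, and the level of E2F4 over that of E2F5 was 4.80 in SRSF1 siRNA cells and 3.29 in control siRNA cells. Exons of C8orf59 lie on the opposite strand of E2F5 in GENCODE 29. C8orf59 had 55.5 FPKM in SRSF1 siRNA cells and 65.6 FPKM in control siRNA cells, and since no source used here says whether counting used strand, reads of the 2 genes may not be told apart where they overlap.

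The atypical members, which are themselves E2F targets and close the S phase programme, both lay slightly lower. E2F7 had 10.8 FPKM in SRSF1 siRNA cells and 12.3 FPKM in control siRNA cells (ratio 0.880, interval 0.820 to 0.945). E2F8 had 5.61 FPKM in SRSF1 siRNA cells and 6.30 FPKM in control siRNA cells, with a ratio of 0.891 whose interval held 1 (0.788 to 1.01). Both were within the 1.5-fold limits, and the level of E2F7 over that of E2F8 was 1.93 in SRSF1 siRNA cells and 1.96 in control siRNA cells.

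Of the pocket proteins, RB1, the tumour suppressor lost in retinoblastoma, had nearly equal levels, with 25.6 FPKM in SRSF1 siRNA cells and 25.9 FPKM in control siRNA cells. The ratio was 0.989 (interval 0.939 to 1.04), on 2916 fragments in SRSF1 siRNA cells and 2861 in control siRNA cells. RBL1, whose protein is most abundant in cycling cells, had 8.02 FPKM in SRSF1 siRNA cells, against 12.7 FPKM in control siRNA cells, a ratio of 0.632 (0.585 to 0.683). RBL2, best known from quiescent cells, had 9.77 FPKM in SRSF1 siRNA cells, against 13.3 FPKM in control siRNA cells, a ratio of 0.735 (0.680 to 0.794), short of the 1.5-fold limit. Both RB1 relatives were therefore lower while RB1 was not, and the intervals of their ratios did not overlap that of RB1. RBL1 was just past the 1.5-fold limit, at -0.60 on the log2(FPKM + 1) scale, and was no longer past it under quantile normalization (-0.54) or with the differences centred on the median of all expressed genes (-0.54). In GENCODE 29 on GRCh38, RB1 lies on chromosome 13 (48303726 to 48599436, plus strand), RBL1 on chromosome 20 (36996349 to 37095995, minus strand) and RBL2 on chromosome 16 (53433977 to 53491649, plus strand). Exons of AKTIP overlap those of RBL2 on the opposite strand, and AKTIP had 4.49 FPKM in SRSF1 siRNA cells and 4.40 FPKM in control siRNA cells. The antisense gene AL136172.1 overlaps exons of RBL1 on the opposite strand, and no level was found under this name. As for E2F5, reads may not be told apart where such exons overlap.

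**Figure D2:**
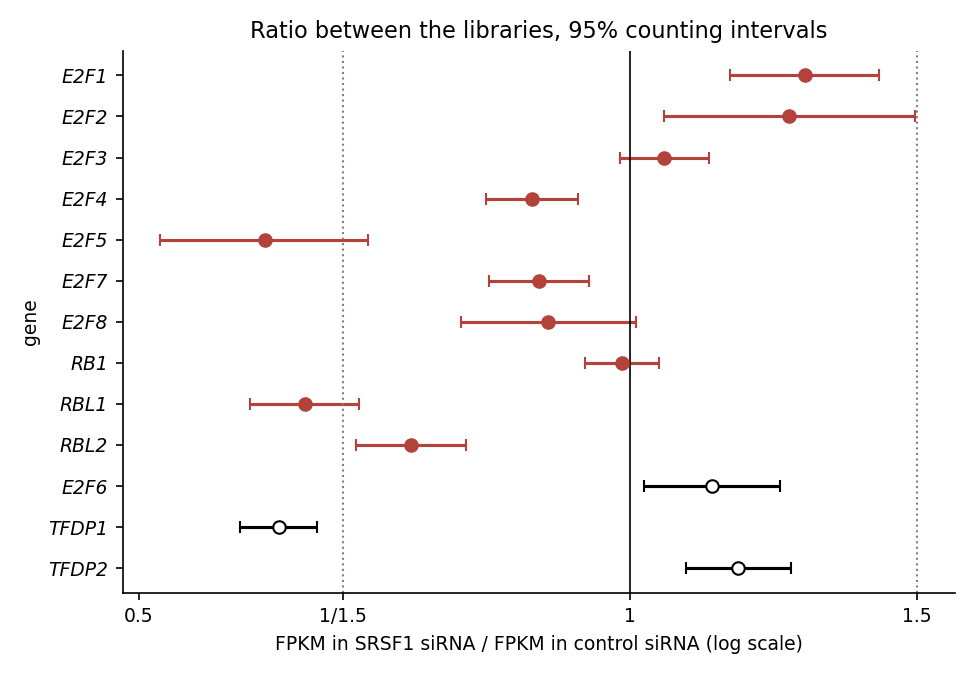
Ratio of the FPKM in the SRSF1 siRNA library to that in the control siRNA library on a log axis, for the 10 family genes (filled) and for E2F6, TFDP1 and TFDP2 (open). Bars are exact 95% counting intervals, and dotted lines mark 1.5-fold as a plain ratio. E2F5, RBL1 and TFDP1 lie below the lower line, at 0.597, 0.632 and 0.609.

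Counting error alone left 3 members undecided in direction. The 95% interval of the ratio lay wholly above 1 for 2 members (E2F1 and E2F2), wholly below 1 for 5 (E2F4, E2F5, E2F7, RBL1 and RBL2), and held 1 for E2F3, E2F8 and RB1. Among all 11274 genes the interval lay wholly above 1 for 19.5% and wholly below 1 for 34.5%. These shares rest on the smallest counts that fit and can be too low. These intervals say how precisely 2 libraries were counted and do not cover variation between cultures.

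**Figure D3:**
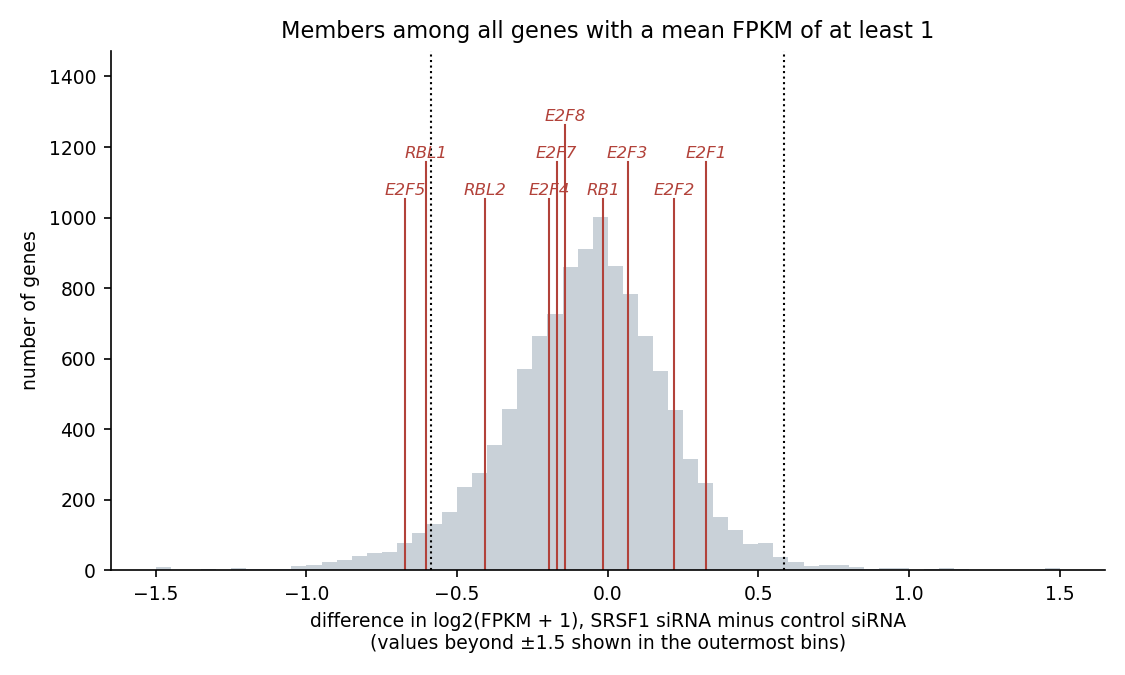
Number of genes (vertical axis) by the difference between the libraries in log2(FPKM + 1), positive where the SRSF1 siRNA library is higher, for the 11274 expressed genes. Red lines mark the 10 family genes and dotted lines the 1.5-fold limits. E2F5 and RBL1 lie past the lower limit, and the other 8 lie between the limits.

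The order of the levels within a library changed in the middle of the family. In both libraries E2F4, RB1 and E2F3 were the most abundant, in this order, and E2F8 and E2F2 the least abundant, each separated from its neighbour by more than its counting interval. In control siRNA cells RBL2, RBL1, E2F7 and E2F5 followed E2F3 at 13.3 to 12.2 FPKM, with overlapping intervals from each to the next, and E2F1 came below them. In SRSF1 siRNA cells E2F1 came directly after E2F3 and above E2F7, RBL2, RBL1 and E2F5. Only the intervals of E2F7 and RBL2, and those of RBL1 and E2F5, overlapped there. The level of E2F1 over that of RBL1 was 1.61 in SRSF1 siRNA cells and 0.794 in control siRNA cells. E2F1 lay at 0.33 and RBL1 at -0.60 on the log2(FPKM + 1) scale, so a shift of this ratio follows from the choice of the pair.

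The make-up of the pocket protein pool differed accordingly. RB1 made up 59.0% of the summed FPKM of the 3 genes in SRSF1 siRNA cells and 49.9% in control siRNA cells. RBL1 made up 18.5% in SRSF1 siRNA cells and 24.4% in control siRNA cells. The pool as a whole was 43.4 FPKM in SRSF1 siRNA cells and 51.9 FPKM in control siRNA cells, a ratio of 0.836 (approximate interval 0.806 to 0.868), and RBL1 and RBL2 together were at 0.685 times (0.648 to 0.723). Among the 7 E2F genes, E2F1 made up 14.1% in SRSF1 siRNA cells and 10.1% in control siRNA cells, and E2F5 made up 7.98% in SRSF1 siRNA cells and 12.3% in control siRNA cells. The summed level of the 7 was 91.2 FPKM in SRSF1 siRNA cells and 99.3 FPKM in control siRNA cells. These are shares of transcript level and not of protein.

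**Figure D4:**
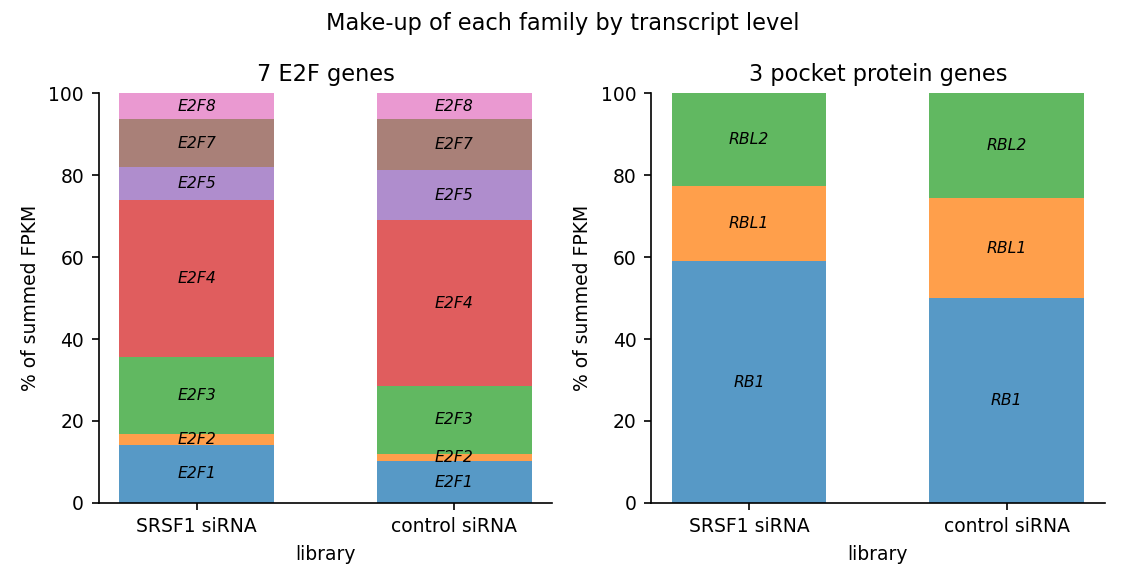
Percent of the summed FPKM (vertical axis) taken by each gene, among the 7 E2F genes (left panel) and the 3 pocket protein genes (right panel), in the SRSF1 siRNA library (left bar) and the control siRNA library (right bar). RB1 takes 59.0% of the pocket protein sum in SRSF1 siRNA cells and 49.9% in control siRNA cells.

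The DP partners of E2F proteins were unequal as well. TFDP1, which encodes the main partner DP1, had 32.4 FPKM in SRSF1 siRNA cells, against 53.1 FPKM in control siRNA cells, a ratio of 0.609 (0.576 to 0.643). It was past the 1.5-fold limit, at -0.70 on the log2(FPKM + 1) scale. TFDP2, which encodes DP2, had 6.58 FPKM in SRSF1 siRNA cells and 5.64 FPKM in control siRNA cells (1.17, 1.08 to 1.26), and TFDP3 was listed at 0 in both. The level of TFDP1 over that of TFDP2 was 4.92 in SRSF1 siRNA cells and 9.42 in control siRNA cells. E2F6, a repressor that does not bind pocket proteins, had 11.1 FPKM in SRSF1 siRNA cells and 9.91 FPKM in control siRNA cells (1.12, 1.02 to 1.24). In its window TFDP1 held 1 E2F word, as GCGCGAAA, 120 bases before the start.

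RBL1 or RBL2 joins E2F4 or E2F5 and the MuvB core in the DREAM complex, which represses cell cycle genes in quiescence. Of the 8 genes of the MuvB core and its MYB and FOX partners, 0 were at least 1.5-fold higher or lower, and 6 of 8 were above 0, with a median of 0.23, where 4474 of 11274 expressed genes were above 0. The highest on the log2(FPKM + 1) scale were MYBL1, a relative of B-Myb, at 1.44 times (1.29 to 1.61), and the core subunits LIN9 at 1.31 times (1.19 to 1.44) and LIN54 at 1.24 times (1.15 to 1.35). MYBL2, which encodes B-Myb and takes over the core in S phase, was at 0.812 times (0.753 to 0.875). Of the other core subunits, LIN52 was at 1.27 times (1.03 to 1.57), LIN37 at 1.06 times (0.767 to 1.46) and RBBP4 at 0.961 times (0.852 to 1.08). The intervals of LIN37 and RBBP4 held 1 at the smallest counts that fit. For RBBP4 these were 540 fragments in SRSF1 siRNA cells and 545 in control siRNA cells. Multiples of these counts would give narrower intervals and were not checked, so whether the interval of RBBP4 holds 1 is left undecided.

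Of 14 measured cyclins, kinases and inhibitors upstream of the pocket proteins, 1 was at least 1.5-fold higher and 1 lower, with a median of 0.03. The one higher was CDK6, with 8.60 FPKM in SRSF1 siRNA cells against 4.30 FPKM in control siRNA cells. The one lower was its cyclin partner CCND1, with 26.1 FPKM in SRSF1 siRNA cells against 60.9 FPKM in control siRNA cells. The complex of their products starts the phosphorylation of pocket proteins. CCND2 was at 1.26 times (1.20 to 1.32) and CDC25A, a phosphatase that activates CDK2, at 1.14 times (1.07 to 1.22). CCNE1, cyclin E1, was at 0.786 times (0.725 to 0.853), and CDK4 was at 47.6 FPKM in SRSF1 siRNA cells and 47.4 FPKM in control siRNA cells. Of the inhibitors, CDKN2B was at 6.07 FPKM in SRSF1 siRNA cells and 7.47 FPKM in control siRNA cells (0.812 times, 0.726 to 0.909). CDKN1A was at 21.4 FPKM in SRSF1 siRNA cells and 19.3 FPKM in control siRNA cells (1.11 times, 1.02 to 1.21). At the smallest counts that fit, the intervals of CDKN1B, CDKN2C and CDKN2D held 1. CDKN2A, which encodes the CDK4 and CDK6 inhibitor p16, rested on 2 fragments in each library.

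Of 10 corepressors that bind pocket proteins, 0 were past 1.5-fold in either direction, with a median of 0.09. HDAC1, a histone deacetylase, was at 1.32 times (1.26 to 1.39), RBBP7 at 1.24 times and the DNA methyltransferase DNMT1 at 1.17 times. SUV39H1, a histone methyltransferase, was at 0.929 times (0.807 to 1.07), KDM5A at 0.936 times (0.891 to 0.982) and SMARCA4 at 0.985 times (0.958 to 1.01).

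The genes that E2F factors control showed no single direction. Of 42 E2F target genes of G1/S, 6 of them family members, 1 was at least 1.5-fold higher and 3 were lower. Of all 11274 expressed genes, 1.22% were higher by this limit and 4.30% lower. In the list 24 were above 0 and 18 below, with a median of 0.07. Of all expressed genes 4474 were above 0 and 6800 below, with a median of -0.06. Under quantile normalization or median centring 1 of the list was lower, and the list median was 0.12 or 0.13. GINS1, a subunit of the replicative helicase, was at 1.57 times, whereas the repair gene BRCA1 was at 0.538 times, RBL1 at 0.632 times and POLA1, the catalytic subunit of DNA polymerase alpha, at 0.646 times. Of 25 DREAM target genes of G2/M, 0 were past 1.5-fold in either direction on the log2(FPKM + 1) scale, with a median of -0.01, and 1 was lower with a pseudocount of 0.1 or with none. The highest of these was CDC25C at 1.19 times (1.06 to 1.34), and the lowest were HMMR at 0.650 times, CENPA at 0.681 times and KIF20A, a mitotic kinesin, at 0.739 times (0.683 to 0.799).

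Genes were also described by whether their promoter window held an E2F word. Of 573 expressed genes with a word, the median difference was -0.05, and of 7354 with a window and no word it was -0.06. Of the G1/S list, the 24 genes with a word had a median of 0.13 and the 12 with a window and no word one of -0.14. In the family, E2F1 at 128%, E2F2 at 125%, E2F3 at 105% and RBL1 at 63.2% of the control level all held a word, so genes with a word lay both above and below their control level. No window was found for E2F5, the lowest member.

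**Figure D5:**
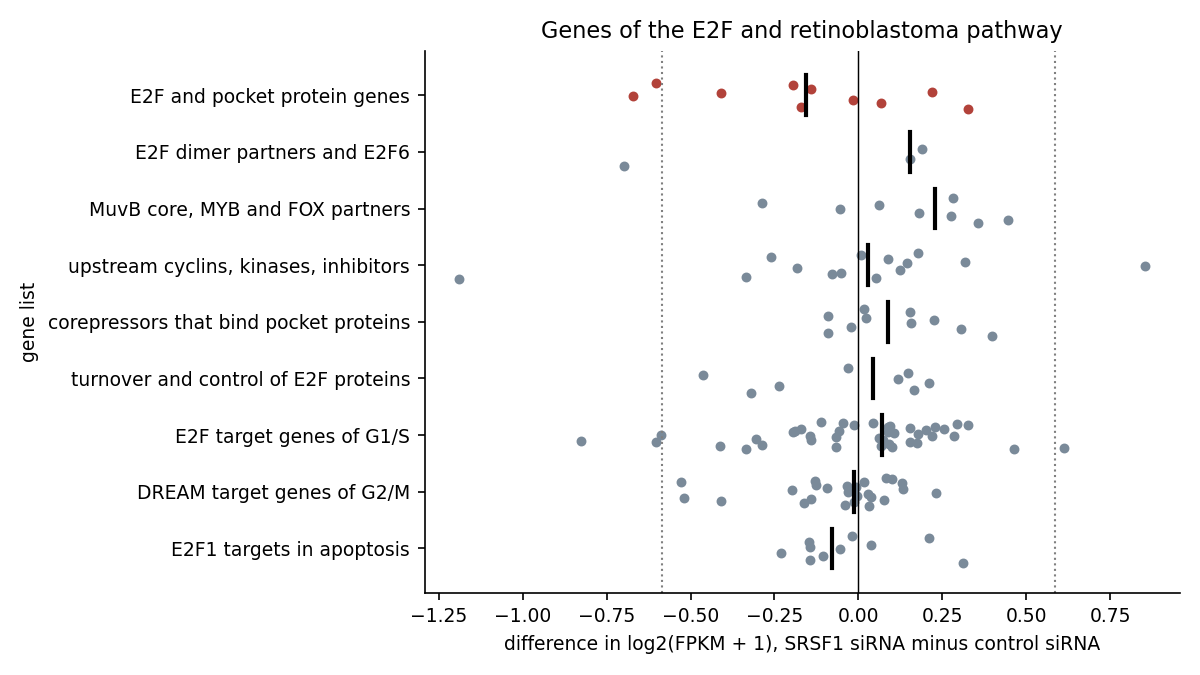
Difference between the libraries in log2(FPKM + 1), positive where the SRSF1 siRNA library is higher, for each expressed gene (point) of the family (red) and of 8 lists of its pathway (grey). Black bars are list medians and dotted lines the 1.5-fold limits. The family median is -0.16, and that of the MuvB list is 0.23.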

How the data were processed

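The authors deposited 1 FPKM value per gene and library, and a mapping summary per library with the fraction of mapped reads per chromosome. Per the submitters' processing notes, reads were processed with Bowtie 0.12.2 on build hg19. For the counting tool, annotation, strand setting and filters, the entry is: not given in the sources used here. Groups were taken from the labels. The family and the 8 pathway lists were chosen with earlier results of these data known. The named genes were all family members and up to 3 genes with the largest rise and 3 with the largest fall of each list, with others of short lists where a result needed them. No gene was named for likeness of pattern, since 2 libraries give 1 difference.

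Change was measured as log2(FPKM + 1) in SRSF1 siRNA cells minus that in control siRNA cells, which understates changes of low genes, over genes averaging 1 FPKM or more. Ratios are plain ratios of FPKM. Library totals and each gene's whole number of fragments were worked back from FPKM with a relative tolerance of 2e-12, for 16234 of 16235 genes above 0 in both libraries. Counts are the smallest that fit, and multiples of them were checked for the 10 members only. For other genes the true counts can be larger, which would make their intervals narrower than given. For 9 of the 10 members the recovered gene model length was already nearest to that of the longest GENCODE 29 transcript, and for E2F5 a multiple of 3 was nearer. Exact Clopper-Pearson 95% intervals of ratios, conditional on the summed count, and approximate intervals of pool ratios (delta method) cover counting error only. The recovery was tested on simulated data, where a recovered count passed if the true count was a multiple of it. Such a test does not check the size of the counts, on which the width of the intervals depends. Length and GC trends were removed with lowess curves (span 0.3, statsmodels 0.14.6), for 10779 genes with an annotated transcript. Python 3.11.15, numpy 2.4.6, pandas 2.3.3, scipy 1.17.1 and matplotlib 3.10.9 were used.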

Additional observations from a re-analysis of the deposited data

How the results depend on the processing

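The count of family members at least 1.5-fold lower was 2 under the pseudocounts, the filters, rescaling to a fixed sum and trend removal, and 1 under quantile normalization and with median centring, where RBL1 was at -0.54. No member was at least 1.5-fold higher under any of these settings. E2F5 ranged from -0.74 to -0.60, RBL1 from -0.66 to -0.54 and E2F1 from 0.33 to 0.39, and RB1 changed sign, from -0.08 to 0.04. The pocket protein pool ratio, 0.836 as deposited, was 0.873 under quantile normalization, 0.871 with median centring and 0.803 with the length and GC trend removed. Of all expressed genes, 138 were at least 1.5-fold higher and 485 lower. These counts were 237 and 806 for a pseudocount of 0.1, 256 and 860 for none, 259 and 802 for columns brought to 1 sum, and 69 and 267 for genes averaging 5 FPKM or more. They were 247 and 594 with no filter, 217 and 324 under quantile normalization, 197 and 355 with median centring and 124 and 372 with the trend removed. The set of genes counted was wider than the 11274 with no filter and smaller at 5 FPKM or more. With the trend removed it was 10779 genes. Counts from these 3 settings therefore cannot be compared with the others as shares. The cause of these shifts was not tested. No paired analysis was possible because each group held 1 library, and no library could be left out for the same reason. With its fragments multiplied by 3 to match its longest transcript, the interval of E2F5 was 0.549 to 0.649. Depth limits E2F2 most, at 293 fragments in SRSF1 siRNA cells and 227 in control siRNA cells.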

Other observations

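Genes that control the turnover of E2F proteins were also measured. Of 8 such genes, 0 were past 1.5-fold in either direction, with a median of 0.04. FZR1, an activator of the anaphase-promoting complex, was at 4.51 FPKM in SRSF1 siRNA cells and 6.60 FPKM in control siRNA cells (0.684 times, counting interval 0.599 to 0.780). SKP2, the F-box protein of an SCF ubiquitin ligase, was at 0.793 times (0.683 to 0.921), and CCNF, cyclin F, at 0.836 times (0.768 to 0.910). The interval of SKP2 rests on the smallest counts that fit and may be too wide. These were 323 fragments in SRSF1 siRNA cells and 395 in control siRNA cells. FBXW7, which targets cyclin E, was at 1.17 times (1.08 to 1.27), and the cullin scaffolds CUL1 and CUL4A were at 1.12 and 1.11 times.

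Of 10 measured E2F1 targets in apoptosis, 0 were past 1.5-fold, with a median of -0.08. TP73, a p53 relative, was at 1.89 FPKM in SRSF1 siRNA cells and 1.33 FPKM in control siRNA cells (1.42 times, 1.16 to 1.75). PMAIP1 was at 0.843 times (0.758 to 0.937), and APAF1 at 1.03 times (0.952 to 1.12). Of the processed copies of family genes in the table, E2F3P2 had 1 fragment in the SRSF1 siRNA library and 0 in the control siRNA library, and E2F3P1, E2F4P1 and TFDP1P were listed at 0 in both.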
